A study of Triticum aestivum with 12 samples.

Results

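A set of 3 NAC genes, TraesCS5A01G468300, TraesCS5B01G480900 and TraesCS5D01G481200, was followed across 12 RNA-seq libraries of wheat seedlings. They are called the triad here, and single members are called the 5A, 5B and 5D genes. The members were listed as the most abundant NAC genes that were higher in the mean of 3 transgenic lines than in wild type (WT), so the values that compare the lines with WT chose them and are given for them as a description, with no test. The deposited table holds 124118 genes, of which 417 carry the NAM domain and 3 are members. All 3 members passed the filter on low counts.

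NAC proteins are a plant-specific family of transcription factors named after NAM, ATAF and CUC. The NAM domain at the N-terminus binds DNA and pairs the protein with a partner, and the variable C-terminal part usually activates transcription. Members of the family are known for roles in organ boundaries, leaf senescence, secondary walls and responses to drought and salt, and in Arabidopsis some that are anchored in a membrane relay signals from stressed mitochondria to the nucleus. Bread wheat carries the A, B and D subgenomes, so most genes occur as a set of closely related copies called homoeologs, and the name triad refers to such a set.

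The lines C20, C22 and C40 overexpress TaSIP1 in a form written ΔC in the labels, and C40 also appears there as 40C. Each line and the WT gave 3 libraries from the upper part of untreated seedlings, taken without roots 2 months after germination. The series title places TaSIP1 in mitochondrial retrograde signalling, where TaSRO1 is its partner. The sources used here do not name the promoter that drives the transgene, and TaSIP1 itself was not analysed here because no gene of the table is annotated with that name. The labels do not say whether replicates came from separate plants, so p-values measure the spread between these libraries, which may be technical.

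Library totals ran from 25622422 to 38454215 counts in the lines and from 37757184 to 43532179 counts in WT. The tissue label was checked with 120 genes for chlorophyll a/b-binding proteins, which summed to between 24850 and 127349 CPM (counts scaled to the library total) in the lines and between 81912 and 123261 CPM in WT. Dividing cells were followed with 545 histone and cyclin genes, which summed to 6561, 15439 and 2436 CPM in C20, 7735, 11403 and 7951 CPM in C22, and 2035, 7007 and 10774 CPM in C40, against 1860, 1801 and 2183 CPM in WT. C20 replicate 3 and C40 replicate 1 thus lay near WT on this sum, and the other 7 line libraries lay above it. Values without these 2 libraries are given where leaving them out changed a call.

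The 5A gene, TraesCS5A01G468300, lies on chromosome 5A from 645726165 to 645727685 on the plus strand. TraesCS5B01G480900 lies on 5B from 653432486 to 653433599, and TraesCS5D01G481200 lies on 5D from 519277124 to 519278578, both also on the plus strand. These positions come from the deposited table of counts; the sources used here do not name its build. The counted lengths were 1375 bases for the 5A gene, 984 for the 5B gene and 1328 for the 5D gene. Each is described only by the domain PF02365, no apical meristem (NAM) protein. The sources used here do not say how reads that match more than 1 homoeolog were counted, so the split between members is less certain than their sum. They do not say either whether counting used strand, and reads from overlapping or antisense genes cannot be told apart.

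All 3 genes were higher in every line library than in any WT library, with C20 both the highest and the most uneven group. TraesCS5B01G480900 had 142, 42.9 and 198 CPM in C20, 86.5, 56.5 and 92.2 CPM in C22, and 69.3, 97.3 and 87.4 CPM in C40, against 37.7, 32.7 and 38.8 CPM in WT. TraesCS5D01G481200 had 127, 31.99 and 219 CPM in C20, 70.0, 55.3 and 78.5 CPM in C22, and 62.5, 86.7 and 77.1 CPM in C40, against 27.1, 21.9 and 27.8 CPM in WT. In both genes C20 replicate 2 was the lowest line library and C20 replicate 3 the highest, and neither gene's line libraries overlapped those of WT. TraesCS5A01G468300 had 104, 34.4 and 179 CPM in C20, 51.1, 40.2 and 58.4 CPM in C22, and 51.9, 91.5 and 76.7 CPM in C40, against 34.3, 29.5 and 32.4 CPM in WT. Its ranges came closest to meeting, since C20 replicate 2 at 34.4 CPM lay just above WT replicate 1 at 34.3 CPM. Over all genes tested, 5.95% had all 9 line libraries above all 3 WT libraries in CPM.

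**Figure D1:**
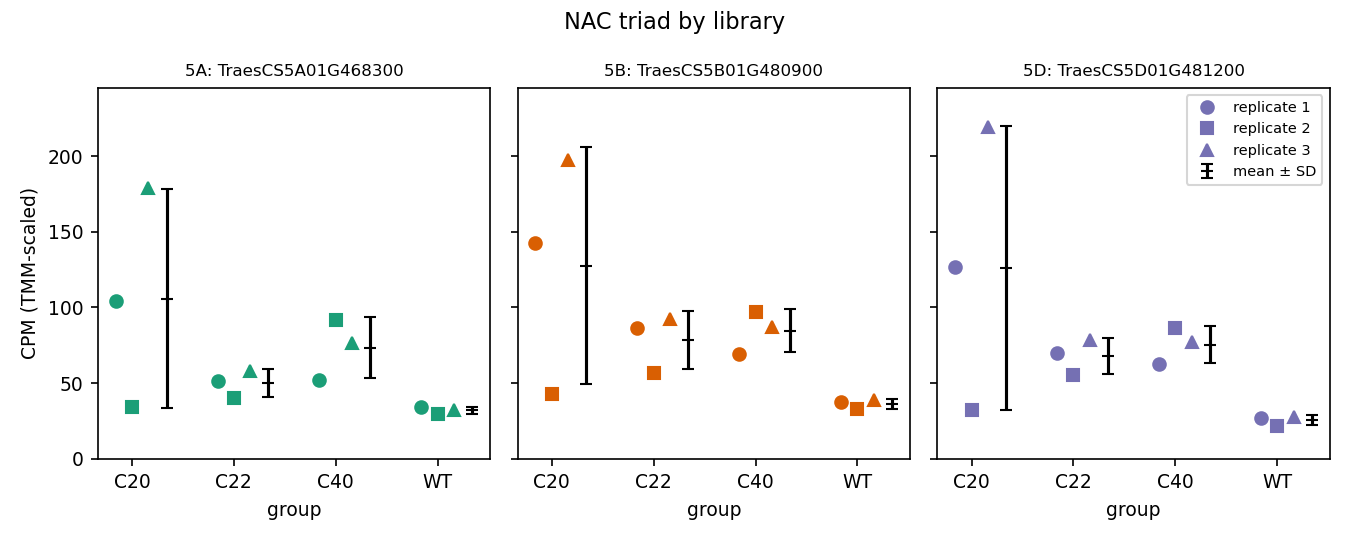
CPM (linear axis) of the 5A, 5B and 5D genes in each library, with 1 panel per gene and the groups C20, C22, C40 and WT from left to right. Points are libraries, and the bars mark the group mean and its SD (n = 3). C20 spreads furthest in every panel, from 31.99 to 219 CPM for the 5D gene, and WT spreads least.

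These levels rest on many reads. The 5A gene had between 1165 and 3977 counts in a line library and between 941 and 1249 counts in a WT library. The 5B gene had between 1452 and 4393 counts in the lines and between 1043 and 1373 in WT, and the 5D gene between 1084 and 4879 in the lines and between 699 and 987 in WT. Counting error is therefore small beside the spread between libraries. In these bulk samples more RNA per cell and more cells of an expressing type cannot be told apart.

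Group means followed the order C20, C40, C22, WT for each gene. The 5B gene averaged 128 ± 78.4 CPM in C20, 84.7 ± 14.2 CPM in C40 and 78.4 ± 19.2 CPM in C22, against 36.4 ± 3.24 CPM in WT (SD, n = 3 each). The 5D gene averaged 126 ± 93.7 CPM in C20, 75.4 ± 12.2 CPM in C40 and 67.9 ± 11.7 CPM in C22, against 25.6 ± 3.21 CPM in WT. The 5A gene averaged 106 ± 72.3 CPM in C20, 73.4 ± 20.05 CPM in C40 and 49.9 ± 9.16 CPM in C22, against 32.1 ± 2.41 CPM in WT. The libraries of C20 overlapped those of C40, and those of C40 overlapped those of C22, so that neighbours in the order of the lines did not differ beyond their spread.

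Relative to WT, the 5D gene stood highest and the 5A gene lowest in every line. The mean CPM over all 9 line libraries was 3.50 times that of WT for the 5D gene, 2.66 times for the 5B gene and 2.38 times for the 5A gene. By line, the 5D gene was at 4.92 times the WT mean in C20, 2.65 times in C22 and 2.94 times in C40. The 5B gene was at 3.50 times in C20, 2.15 times in C22 and 2.32 times in C40, and the 5A gene at 3.29, 1.55 and 2.29 times in the same lines. In the edgeR quasi-likelihood fit the mean log2 difference between the lines and WT was 1.75 ± 0.45 for the 5D gene, 1.38 ± 0.38 for the 5B gene and 1.18 ± 0.40 for the 5A gene (SE). The Benjamini-Hochberg adjusted p-values, given as a description, were 0.0219, 0.0286 and 0.0536 in the same order of genes. The 5A gene therefore lay just outside the call at 0.05 that its listing as risen implies, whereas DESeq2 gave it an adjusted p of 0.0109. Of all genes tested, 11.5% were called higher in the lines by edgeR and 17.9% by DESeq2.

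Which members were called depended on single libraries. Over 19 alternative fits the 5B and 5D genes were each called in 16 and the 5A gene in 6. The fits that lost the 5B and 5D calls were those without 1 WT library: without WT replicate 1, 2 or 3 the adjusted p was 0.0927, 0.118 and 0.0962 for the 5B gene, and 0.0765, 0.1002 and 0.0794 for the 5D gene. Calls over all genes also fell in the same fits, to 6426, 4216 and 5828, from 17592 with all libraries. Counts given below for fits without a library are to be read beside such totals, which reached 26498 without C20 replicate 3. The 5A gene was called without C20 replicate 2 (adjusted p = 0.00369, edgeR), C20 replicate 3 (0.0418), C40 replicate 1 (0.0429) or the last 2 together (0.0239), under a filter of at least 1 CPM (0.0492), and by DESeq2. The log2 difference stayed between 0.95 and 1.32 for the 5A gene, 1.19 and 1.51 for the 5B gene, and 1.503 and 1.90 for the 5D gene over these 19 fits.

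**Figure D2:**
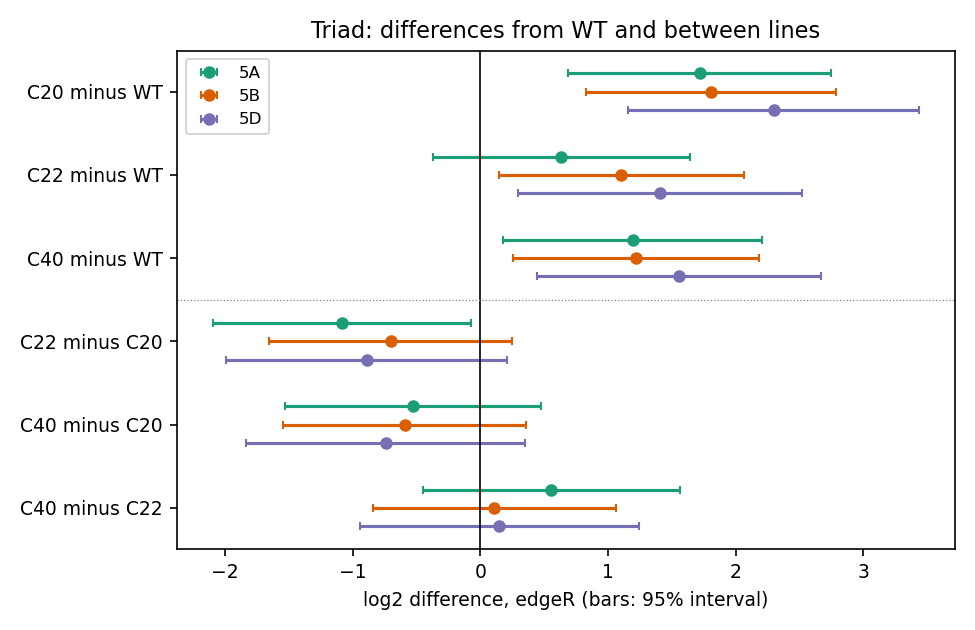
Log2 differences of the 5A, 5B and 5D genes from the edgeR fit with their 95% intervals, for each line against WT (above the dotted rule) and for the pairs of lines (below it). The intervals against WT describe the contrast that chose the genes. Of the 9 comparisons between lines, only the interval of C22 minus C20 for the 5A gene, from −2.10 to −0.07, leaves out 0, and its adjusted p did not pass.

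The comparison between lines was independent of the choice of members and was tested. None of the 3 genes differed between the lines by edgeR's F test, with adjusted p = 0.389 for the 5A gene, 0.581 for the 5B gene and 0.515 for the 5D gene, and unadjusted p-values from the same edgeR test of 0.104, 0.247 and 0.189. DESeq2 and limma also called 0 of the 3. Of all genes tested, 2.49% passed this test. C22 minus C20 was −1.08 on the log2 scale for the 5A gene (95% interval −2.10 to −0.07, adjusted p = 0.261, edgeR), −0.70 for the 5B gene (−1.66 to 0.25, 0.453) and −0.89 for the 5D gene (−1.99 to 0.21, 0.401). C40 minus C20 was −0.53 (−1.53 to 0.48), −0.59 (−1.54 to 0.36) and −0.74 (−1.84 to 0.35) for the 5A, 5B and 5D genes, with edgeR adjusted p-values of 0.639, 0.565 and 0.521. C40 minus C22 was 0.56 (−0.45 to 1.56), 0.11 (−0.84 to 1.06) and 0.15 (−0.94 to 1.24), with edgeR adjusted p-values of 0.832, 0.979 and 0.975. Among all genes, 1.07% were called between C22 and C20, 1.66% between C40 and C20, and 0.425% between C40 and C22. Of the 9 intervals 8 hold 0, but they reach differences of up to 1.99 log2 units, so the data do not show that the lines acted alike.

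This outcome rested on C20 replicate 2. Without it the F test passed for all 3 genes, with edgeR adjusted p-values of 0.0234 for the 5A gene, 0.0312 for the 5B gene and 0.0176 for the 5D gene, and so did 9.53% of all genes. C22 was then lower than C20 by −1.50, −1.12 and −1.35 on the log2 scale in the order 5A, 5B, 5D, all passing (adjusted p = 0.0155, 0.0273 and 0.0160, edgeR), beside 5.24% of all genes lower in C22. C40 was also lower than C20 for the 5B gene (−1.01, 0.0475) and the 5D gene (−1.20, 0.0325), while the 5A gene, at −0.95, did not pass (0.0826), beside 3.37% of all genes lower in C40. Without C20 replicate 3 instead, C40 minus C20 for the 5A gene was 0.08. The position of C20 above the other lines thus rested on its replicates 1 and 3.

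The 3 genes moved together from library to library. The summed CPM of the 3 genes was 373, 109 and 596 in C20, 208, 152 and 229 in C22, and 184, 276 and 241 in C40, against 99.2, 84.2 and 99.0 in WT. C20 replicate 2, the lowest line library for the triad, had the highest histone and cyclin sum, 15439 CPM, and the lowest sums for chlorophyll a/b-binding proteins (24850 CPM) and Rubisco small subunit (9607 CPM). C20 replicate 3, the highest for the triad, had 2436 CPM of histone and cyclin genes and 127349 CPM of chlorophyll a/b-binding genes. In C22, replicate 2 had the lowest triad sum of its line and the highest histone and cyclin sum, 11403 CPM. It also had the lowest chlorophyll a/b-binding (31858 CPM) and Rubisco small subunit (14179 CPM) sums of that line. C22 replicate 3, the highest of its line for the triad, had 7951 CPM of histone and cyclin genes, beside 7735 CPM in replicate 1. C40 did not follow this order. Its replicate 1 had the lowest histone and cyclin sum of the line libraries, 2035 CPM, and the lowest triad sum of that line. WT had low histone and cyclin sums and the lowest triad sums. The part of these marker genes in the triad's levels was not tested.

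As a description, Pearson's r of log2 CPM over the 12 libraries was 0.993 between the 5B and 5D genes, 0.963 between the 5A and 5B genes and 0.958 between the 5A and 5D genes. After the group means were removed it was 0.986, 0.978 and 0.983 in the same order. The libraries share their scaling, and the points are not independent of it.

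The homoeologs did not contribute equally, and their mean shares in the lines differed from those in WT, a difference that was not tested. On the per-length scale the 5B gene was the highest of the 3 in all 12 libraries. This scale divides by the counted lengths, and that of the 5B gene, 984 bases, is the shortest. As a share of raw counts in C20 replicate 3, the 5D gene held 36.8% and the 5B gene 33.2%. In every other library the 5B gene was the highest in raw counts too. On the per-length scale the 5B gene averaged 97.1 ± 46.8 FPKM in the lines (SD, n = 9) and 36.7 ± 3.12 FPKM in WT (SD, n = 3). The 5D gene averaged 66.6 ± 40.6 FPKM in the lines and 19.1 ± 2.33 FPKM in WT, and the 5A gene 54.8 ± 32.1 FPKM in the lines and 23.2 ± 1.70 FPKM in WT. The 5A and 5D genes changed places: the 5D gene lay above the 5A gene in 7 of the 9 line libraries, and the 5A gene lay above the 5D gene in the other 2, which were C20 replicate 2 and C40 replicate 2, and in all 3 WT libraries.

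Expressed as a percent of the summed per-length level of the triad, the 5D gene held 30.2, 26.0 and 33.3% in C20, 29.6, 32.5 and 30.3% in C22, and 30.3, 28.3 and 28.6% in C40, against 24.4, 23.2 and 24.9% in WT. Its line libraries did not overlap WT. The 5A gene held 24.0, 27.0 and 26.2% in C20, 20.9, 22.8 and 21.7% in C22, and 24.3, 28.9 and 27.5% in C40, against 29.8, 30.1 and 28.1% in WT. The 5A ranges overlapped through C40 replicate 2 alone, which at 28.9% lay above WT replicate 3 at 28.1%. The 5B gene held between 40.5 and 49.4% in the lines and between 45.8 and 47.0% in WT, so the ranges overlapped widely.

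**Figure D3:**
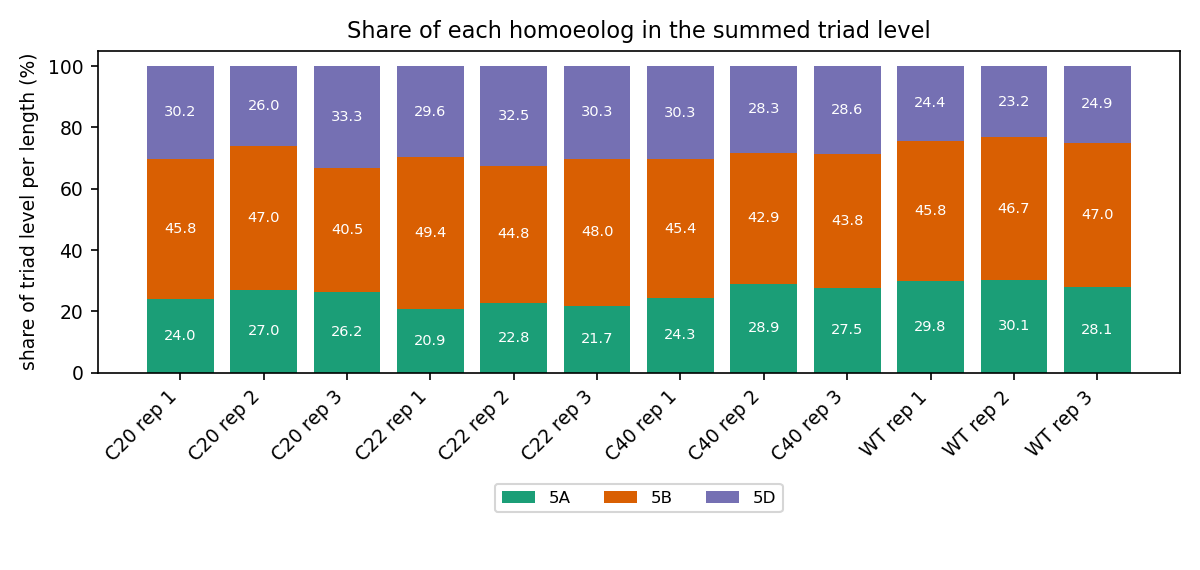
Percent of the summed per-length level held by the 5A, 5B and 5D genes in each library, from C20 on the left to WT on the right. The 5D share sits at 26.0% or more in every line library and at 24.9% or less in WT, while the 5B share is the largest throughout.

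The mean 5D share was 29.9 ± 2.18% in the lines and 24.2 ± 0.902% in WT, a difference of 5.73 percentage points (SD, n = 9 and 3). The mean 5A share was 24.8 ± 2.75% in the lines and 29.3 ± 1.11% in WT, a difference of −4.53 points, and the mean 5B share was 45.3 ± 2.72% in the lines and 46.5 ± 0.619% in WT, a difference of −1.20 points. Because the members were picked on the lines against WT, no p-value is given for these 3 differences. Leaving out any 1 library kept the 5D difference between 5.24 and 6.22 points and the 5A difference between −5.17 and −4.05 points. Counting precision bears on single libraries. As a share of raw counts the lowest 5D value in the lines, in C20 replicate 2, was 29.3% (95% Wilson interval 27.8 to 30.8%), and the highest in WT, in replicate 3, was 28.1% (26.5 to 29.7%), so these 2 libraries overlap within counting error, which is all the intervals cover.

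Between the lines the shares could be tested. The 5A share averaged 25.7 ± 1.57% in C20, 21.8 ± 0.926% in C22 and 26.9 ± 2.34% in C40 (SD, n = 3 each). An exact permutation test of the differences between the lines, over 1680 arrangements, gave p = 0.0357 for the 5A share, 0.296 for the 5B share and 0.696 for the 5D share. Adjusted over the 3 shares these exact permutation p-values were 0.107, 0.445 and 0.696, so no share passed. The smallest p that this permutation design allows is 0.00357. Without C40 replicate 1 the 5A share passed, with an adjusted exact permutation p of 0.0214 and line means 6.39 points apart at most.

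Within the NAC family the triad ranked higher in the lines than in WT, given as a description because abundance and rise chose the members. Among the 417 NAC genes ranked by FPKM in each library, the 5B gene ranked 1 in all 9 line libraries and ranked 3 to 5 in WT. The 5D gene ranked 2 to 5 in the lines and 10 to 12 in WT, and the 5A gene ranked 2 to 7 in the lines and 8 to 9 in WT. The triad made up 13.0 to 25.7% of the summed FPKM of the family in the lines and 8.09 to 8.89% in WT. The family sum itself overlapped, at 618 to 1905 FPKM in the lines and 879 to 1004 FPKM in WT.

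Of the other 414 NAC genes, 203 passed the filter. In the lines 28 (13.8%) rose, 20 (9.85%) fell and 155 stayed below the threshold, beside 11.5% higher and 11.7% lower among all genes tested. Their median log2 difference was 0.14, beside 0.07 for all genes. The counts depended on single libraries: without WT replicate 1, 2 or 3, 12, 11 and 15 rose and 5, 5 and 6 fell, without C20 replicate 2 48 rose, without C40 replicate 1 31 fell, and without C22 replicate 2 13 fell. Over all genes, calls moved from 17592 to 6426, 4216 and 5828 without WT replicate 1, 2 or 3. They were 20992 without C20 replicate 2, 22497 without C40 replicate 1 and 12129 without C22 replicate 2. The abundant NAC genes outside the triad, picked out after their values were seen, did not pass: TraesCS7A01G263100 averaged 48.9 FPKM in the lines and 66.9 FPKM in WT (adjusted p = 0.223, edgeR), TraesCS7D01G263800 53.1 FPKM in the lines and 63.6 FPKM in WT (0.464, edgeR), and TraesCS3D01G401200 44.7 FPKM in the lines and 43.1 FPKM in WT.

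The other NAC genes that rose by edgeR were of lower abundance than the triad. This follows from the listing of the members as the most abundant NAC genes that rose. The most abundant of the other genes, and the first below the members, was TraesCS3B01G371200 on 3B, with 9.62 FPKM in the lines and 1.81 FPKM in WT. Its log2 difference was 2.40 ± 0.47 (SE, adjusted p = 0.00822, edgeR), and its libraries ran from 3.23 to 14.4 FPKM in the lines and from 0.966 to 2.74 FPKM in WT, with no overlap. TraesCS5A01G500700 had 5.10 FPKM in the lines and 0.886 FPKM in WT (log2 difference 2.41, adjusted p = 0.0186), and TraesCS4B01G102700 had 3.06 FPKM in the lines and 1.71 FPKM in WT (0.83, 0.0443). The line and WT ranges of both genes overlapped. TraesCS3A01G339600 rose by 1.87 (0.0118) and TraesCS1D01G275500 by 3.66 (0.00997), the second with 2.75 FPKM in the lines and 0.206 FPKM in WT.

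The NAC genes that fell were led by TraesCS5D01G298600, with 6.21 FPKM in the lines and 13.5 FPKM in WT (log2 difference −1.20 ± 0.34 SE, adjusted p = 0.0310, edgeR). TraesCS7D01G315100 had 4.91 FPKM in the lines and 8.97 FPKM in WT, and TraesCS7A01G318500 had 4.73 FPKM in the lines and 8.93 FPKM in WT, with adjusted p-values of 0.0399 and 0.0400. TraesCS3A01G438900 (−0.88, 0.0102) and TraesCS4B01G174000 (−1.04, 0.0279) had all 9 line libraries below all 3 WT libraries, as did 8.13% of all genes tested. Of these 10 named genes, 3, 2 and 4 were called without WT replicate 1, 2 or 3.

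**Figure D4:**
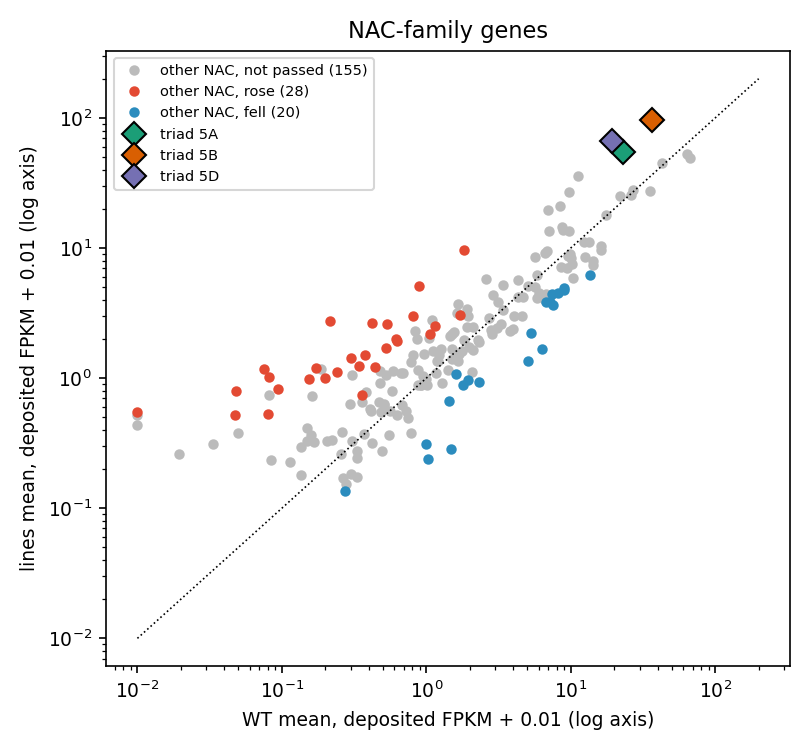
Mean FPKM in the lines against mean FPKM in WT for the NAC genes tested (FPKM + 0.01, both axes logarithmic, dotted line at equality), with the triad, the NAC genes that rose and the NAC genes that fell marked. The triad lies at the upper right, between 54.8 and 97.1 FPKM in the lines. The other NAC genes that rose by edgeR lie at 9.62 FPKM or less, and the choice of the members as the most abundant sets this order.

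Several genes of other families had library profiles close to that of the triad. Likeness was Pearson's r between a gene's log2 CPM and the mean log2 CPM of the triad over the 12 libraries, among 23234 described genes with a mean of at least 5 CPM, and 68 of these reached 0.95. The closest was TraesCS3A01G488400, with an EF-hand pair (a calcium-binding fold), at r = 0.987. It averaged 37.5 ± 22.9 CPM in the lines (SD, n = 9) and 13.8 ± 1.44 CPM in WT (SD, n = 3). Next came TraesCS5A01G401200, a C2H2 zinc finger gene, at 0.985, and a pair with the same zinc-ribbon, RING finger and DUF1117 domains, TraesCS1B01G036900 and TraesCS4A01G095800, at 0.984 each. RING fingers are common in ubiquitin ligases.

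The remaining 4 were TraesCS7A01G528000, with xylanase inhibitor domains (0.983), TraesCS7D01G207000, with the NUDIX hydrolase domain (0.983), TraesCS7B01G105600, with a U-box, another ubiquitin ligase domain (0.982), and TraesCS1D01G034600, with DUF563 (0.981). TraesCS7B01G105600 averaged 20.9 ± 17.5 CPM in the lines and 3.89 ± 0.592 CPM in WT, and its line and WT libraries did not overlap. After removal of group means, r of the 8 genes was 0.960 to 0.995. Of the 8, 7 were called in the lines against WT, TraesCS5A01G401200 being the exception at an adjusted p of 0.0600 (edgeR), and 0 were called when WT replicate 1, 2 or 3 was left out. Calls over all genes were also fewer without a WT library, as given above. The 8 genes were chosen for their likeness to the triad, so the calls are a description.

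Genes of the stress responses that NAC factors are known for did not move in 1 direction. The list held 286 genes described as dehydrin, late embryogenesis abundant (LEA) or ABA/WDS-induced, proteins that accumulate in drying seeds and water-stressed tissue, and 145 were tested. In the lines 23 (15.9%) rose, 28 (19.3%) fell and 94 did not pass, beside 11.5% higher and 11.7% lower among all genes tested. The median log2 difference was −0.19, beside 0.07 for all genes. Without WT replicate 1, 2 or 3, 6, 4 and 5 rose and 18, 9 and 16 fell, in fits where calls over all genes also dropped, as given above. Most of the list was the LEA_2 domain (PF03168), which also occurs in the defence-linked NDR1/HIN1-like proteins, with 20 rises and 21 falls among 108 genes. Of 16 dehydrins 1 rose and 4 fell, of 7 genes with PF03760 2 fell, and of 14 ABA/WDS-induced genes 2 rose and 1 fell.

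The named genes of this list all carry the LEA_2 domain. TraesCS2B01G603100 averaged 24.5 ± 10.9 CPM in the lines (SD, n = 9) and 8.27 ± 0.513 CPM in WT (SD, n = 3; log2 difference 1.51, adjusted p = 0.00878, edgeR). TraesCS2A01G583400 averaged 16.05 ± 7.23 CPM in the lines and 3.49 ± 1.06 CPM in WT (2.17, 0.00790), and TraesCS1D01G349900 2.03 ± 1.23 CPM in the lines and 0.253 ± 0.0484 CPM in WT (2.81, 0.00427). All 9 line libraries lay above WT for each of these 3 genes. In the other direction TraesCS1B01G455700 averaged 5.08 ± 3.03 CPM in the lines and 15.3 ± 1.02 CPM in WT (−1.67, 0.00359). TraesCS3D01G158600 averaged 1.04 ± 0.582 CPM in the lines and 7.61 ± 3.01 CPM in WT (−2.93, 0.00347), and TraesCS3A01G150800 0.654 ± 0.5001 CPM in the lines and 5.41 ± 1.25 CPM in WT (−3.22, 0.00324).

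Chlorophyll breakdown, a part of leaf senescence, was followed with 24 genes described as Staygreen or pheophorbide a oxygenase, of which 22 were tested. Of the 22, 16 were listed for the pheophorbide a oxygenase domain. Related Rieske oxygenases also carry it, so the counts and median need not describe chlorophyll breakdown alone. In the lines 2 of the 22 genes (9.09%) rose and 5 (22.7%) fell, beside 11.5% higher and 11.7% lower among all genes tested. The median log2 difference was −0.68, beside 0.07 for all genes. The falls depended on single libraries: 1, 1 and 2 genes fell without WT replicate 1, 2 or 3, and 3 without any 1 of C20 replicate 1, C22 replicates 2 and 3 and C40 replicates 2 and 3, but 9 without C20 replicate 2 and 13 without C20 replicate 3. Without any 1 WT library 1 gene rose. Over all genes, 26498 were called without C20 replicate 3, beside 17592 with all libraries, and fewer without a WT library, as given above. Staygreen proteins take magnesium out of chlorophyll or aid its breakdown enzymes, and 5 of their 6 tested genes fell. TraesCS5A01G319900 averaged 8.01 ± 2.29 CPM in the lines (SD, n = 9) and 23.7 ± 2.56 CPM in WT (SD, n = 3), a log2 difference of −1.59 ± 0.18 (SE, adjusted p = 9.62e-04, edgeR), and all line libraries lay below WT. TraesCS5B01G320200 (−0.70, 0.0163) and TraesCS5D01G325900 (−0.77, 0.0260) were also lower in the lines.

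The pheophorbide a oxygenase domain marks the enzyme that opens the chlorophyll ring and related Rieske oxygenases. Of its 16 tested genes 2 were called higher and 0 lower, but their median log2 difference was −0.61. The gene with the highest mean CPM, TraesCS3D01G514100, averaged 111 CPM in the lines and 165 CPM in WT and did not pass (adjusted p = 0.346, edgeR). The 2 that rose were TraesCS7A01G137000 and TraesCS7D01G137200. TraesCS7A01G137000 averaged 25.8 ± 17.5 CPM in the lines (SD, n = 9) and 3.03 ± 0.696 CPM in WT (SD, n = 3; log2 difference 2.94 ± 0.47 SE, adjusted p = 0.00366, edgeR), with no overlap of libraries. TraesCS7D01G137200 averaged 11.2 ± 6.34 CPM in the lines and 4.12 ± 0.303 CPM in WT (1.30, 0.0219), and its ranges overlapped. Chlorophyll a/b-binding sums also differed between libraries, as given above, and their part in these counts was not tested.

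The surroundings of the 3 genes were compared because homoeologs usually keep their neighbours. Within the 10 genes before and the 10 after each member, 6 domain sets, matched whatever the order of their domains, occurred on all 3 chromosomes: AP2, ribosomal protein L24e, protein tyrosine kinase, EF-hand, the ABC transporter pair, and zinc-ribbon with RING finger. In all, 13 sets occurred on at least 2. Of the 60 neighbours 41 were tested, 6 rose (14.6%), 8 fell (19.5%) and 27 did not pass, beside 11.5% and 11.7% among all genes. Their median log2 difference was 0.05, beside 0.07 for all genes. Without WT replicate 1, 2 or 3, 1, 2 and 1 neighbours rose and 3, 0 and 2 fell. Without C22 replicate 2, 3 rose and 5 fell, and without C40 replicate 3 5 fell. Over all genes, calls also dropped in each of these fits, to 12129 without C22 replicate 2 and 12573 without C40 replicate 3.

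The AP2 gene downstream of each member, a transcription factor of another plant family, fell on all 3 chromosomes. TraesCS5A01G468800 averaged 29.1 ± 4.50 CPM in the lines (SD, n = 9) and 44.4 ± 0.750 CPM in WT (SD, n = 3; log2 difference −0.61, adjusted p = 0.0192, edgeR). TraesCS5B01G481300 averaged 19.8 ± 3.41 CPM in the lines and 28.6 ± 0.565 CPM in WT (−0.54, 0.0305), and TraesCS5D01G481700 25.9 ± 2.45 CPM in the lines and 34.3 ± 1.31 CPM in WT (−0.40, 0.0480). In each of these 3 genes all 9 line libraries lay below all 3 WT libraries. Over the 19 alternative fits the 5A, 5B and 5D AP2 genes were called in 16, 13 and 8. Of the 10 named neighbours, 3, 1 and 3 were called without WT replicate 1, 2 or 3.

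The gene next to the 5A member, TraesCS5A01G468400, encodes a methylenetetrahydrofolate reductase of folate metabolism and averaged 105 ± 9.36 CPM in the lines and 165 ± 9.81 CPM in WT (SD, n = 9 and 3; −0.65, adjusted p = 0.0140, edgeR). The gene of the same description next to the 5B member, TraesCS5B01G481000, did not pass (−0.36, 0.128). The ribosomal protein L17 genes TraesCS5B01G481100 (−1.01, 0.0113) and TraesCS5D01G481500 (−1.01, 0.0155) fell, and so did TraesCS5A01G468600, which has no description (−1.09, 0.0143). The L24e gene TraesCS5B01G480700 rose by 1.49 (0.0372). The tested L24e genes on 5A, TraesCS5A01G468000 (0.96, 0.109), and on 5D, TraesCS5D01G481100 (1.34, 0.104), did not pass. The EF-hand genes, at low levels, were called higher on all 3 chromosomes. TraesCS5D01G481000 rose by 3.28 (0.00720), to 2.31 ± 0.977 CPM in the lines, against 0.226 ± 0.131 CPM in WT. The 5B gene of this description, TraesCS5B01G480300, outside the rule for named genes, rose by 3.17 (0.0137). It averaged 1.51 ± 0.862 CPM in the lines and 0.151 ± 0.125 CPM in WT. The 5A gene of this description, TraesCS5A01G467800 (adjusted p = 0.0170, edgeR), averaged 0.463 ± 0.468 CPM in the lines and had 0 counts in all 3 WT libraries, so no fold is given.

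**Figure D5:**
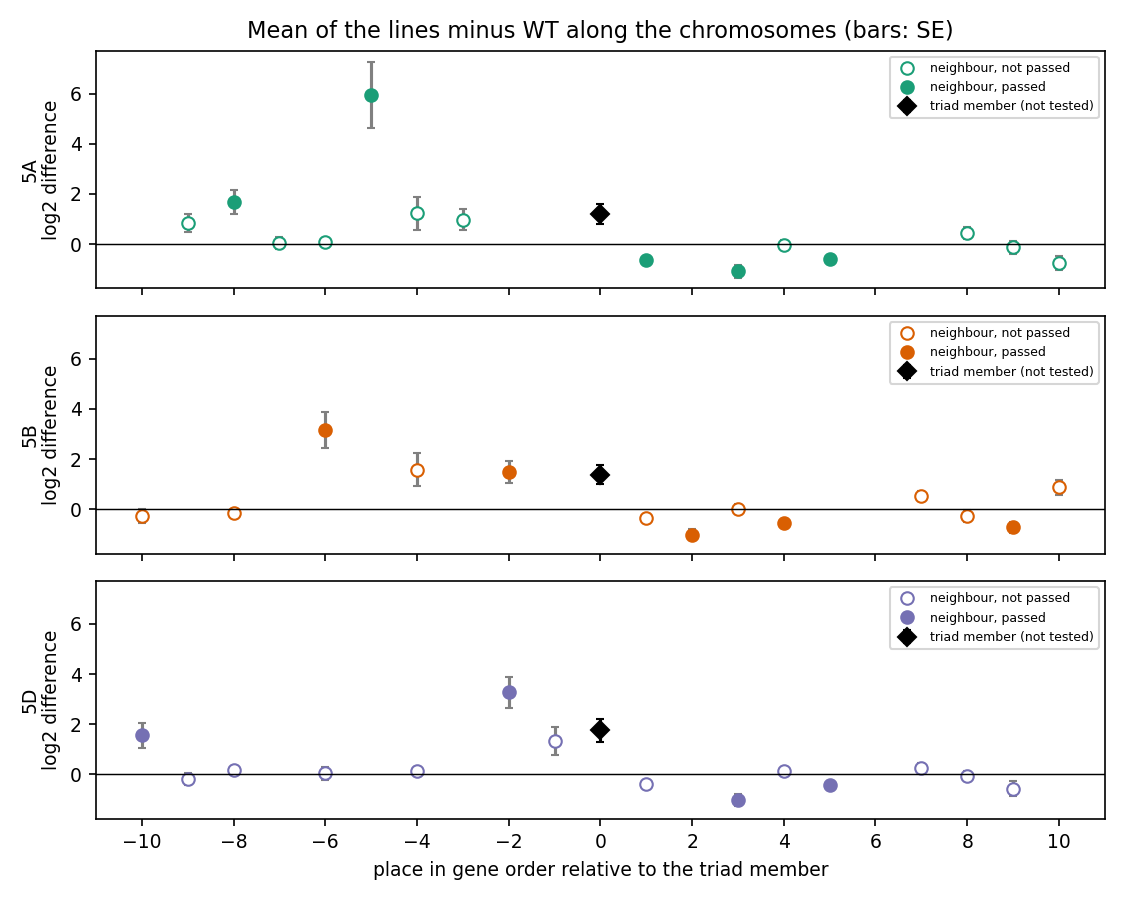
Log2 difference between the lines and WT for the 10 genes before and the 10 after each member, plotted by position in gene order, with 1 panel for each of 5A, 5B and 5D and the member, a diamond, at the centre (bars are SE). Filled circles passed the test and open ones did not, and the circle at 5.95 is the EF-hand gene with 0 counts in WT, whose height is set by the fit's prior count. The members stand at 1.18, 1.38 and 1.75, and the AP2 genes 4 or 5 places after them lie below 0.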

How the data were processed

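Raw counts per gene came from featureCounts 1.5.0-p3, per the submitters' processing notes, and were deposited with a table of FPKM. The sources used here do not name the aligner, annotation release or build. Libraries were NEBNext Ultra, made from Trizol-extracted RNA, per the labels' protocols. The authors' FPKM equal counts divided by gene length and by a library constant. That constant was 0.797 to 1.35 times what library totals give, and the CPM scale used here was 0.953 to 1.03 times the resulting FPKM scale.

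The count fit used edgeR 4.0.16 in R 4.3.3, with filterByExpr (75788 genes left), TMM scaling, 4 group means over 12 libraries, quasi-likelihood tests and Benjamini-Hochberg adjustment over all genes, with calls at 0.05. Lines against WT is the mean of the 3 lines minus WT. SE is the absolute log2 difference over the square root of F. CPM are counts over TMM-scaled totals. The median biological coefficient of variation was 0.321. Replicates differed beyond sampling noise (chi-square per gene 6.87 to 170), so none were merged. The alternatives were DESeq2 1.42.0, limma 3.58.1 on log2(FPKM + 0.1), RLE scaling, no filter, at least 1 CPM in 3 libraries, the replicate number as a block, dropping each library, and dropping both C20 replicate 3 and C40 replicate 1. Scripts were tested on simulated data. Shares were computed in Python 3.11.15 with scipy 1.17.1.

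The members and lists were chosen with earlier results of these data known. The rule for named genes took the 8 closest profiles, the 5 most abundant NAC genes that rose and the 5 that fell, up to 3 genes in each direction of each other list with the lowest adjusted p, and the nearest called neighbours, up to 3 for each member, ties kept. A permutation test planned for the homoeolog shares of the lines against WT is not given, since that contrast chose the members. Genes with PF01849, which belongs to another family despite its name, or with PF14303 alone were left out of the NAC list after the table was seen. Replicate numbers were not used to pair libraries.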

Additional observations from a re-analysis of the deposited data

How the results depend on the processing

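In every alternative run the members kept the sign of every log2 difference against WT and the homoeolog shares kept the sign of their differences. The replicate numbers were not taken as pairs: residual profiles of 18 pairs sharing a number correlated from −0.513 to 0.461, 8 exceeded 0.1, and for 5 libraries the closest of another group had the same number. Among the 6 pairs of replicates 2 all were above 0 (0.0910 to 0.461) and 5 exceeded 0.1. With the replicate block 16014 genes were called in the lines against WT, beside 17592 without it, and the 5B gene (log2 difference 1.34) and the 5D gene (1.71) but not the 5A gene (1.14) were among them. DESeq2 gave 8 falls for chlorophyll breakdown, against 5, with 25012 calls over all genes, against 17592. Without C20 replicate 3 and C40 replicate 1 together, calls over all genes rose to 32263 of 77139, from 17592 of 75788. In that fit 38 NAC genes and 16 chlorophyll breakdown genes fell and 11 neighbours rose. There C40 minus C20 turned to 0.28 for the 5A gene and 0.0472 for the 5D gene, neither called. Without LEA_2 genes, an alternative added after seeing the data, 3 of 37 dehydration-related genes rose and 7 fell. With PF01849 and PF14303 genes kept, also added, 38 of 237 NAC genes rose and 25 fell. The cause of these shifts was not tested beyond the change in the libraries or genes used.

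Leaving out each library in turn gave the following ranges. The edgeR adjusted p of any difference between lines ran from 0.0234 to 0.656 for the 5A gene, 0.0312 to 0.917 for the 5B gene and 0.0176 to 0.928 for the 5D gene. C22 minus C20 ran from −1.50 to −0.49, −1.12 to −0.26 and −1.35 to −0.24 for the 5A, 5B and 5D genes, and C40 minus C20 from −0.95 to 0.0802, −1.01 to −0.13 and −1.20 to −0.078. C40 minus C22 for the 5B gene ran from −0.0797, without C22 replicate 2, to 0.24, and was also below 0 without C40 replicate 2. The largest gap between line means of the 5A share ran from 4.11 to 6.39 points. Genes that rose and fell numbered 11 to 48 and 5 to 31 for NAC, 4 to 33 and 9 to 32 for dehydration, 1 to 3 and 1 to 13 for chlorophyll breakdown, and 1 to 8 and 0 to 10 for neighbours. Calls over all genes ran from 4216 to 26498 in the same fits.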

Other observations

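The NAC genes outside the triad whose library profiles were closest to it also fell into sets across the A, B and D subgenomes, a pattern picked out after the values were seen. Among the other NAC genes with a mean of at least 5 CPM, the first 6 by Pearson's r with the triad's mean log2 CPM over the 12 libraries were 3 on group 6 chromosomes and 3 on group 7 chromosomes. TraesCS6A01G057400 had r = 0.945, TraesCS6D01G059300 0.938 and TraesCS6B01G075200 0.887. TraesCS7D01G535300 had 0.923, TraesCS7A01G549000 0.909 and TraesCS7B01G472600 0.879.

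Of these 6 genes 0 passed the edgeR test of the lines against WT, 5 had an unadjusted p under 0.05, and DESeq2 called 4 and limma 0. Among all genes tested, 11.5% were called higher in the lines by edgeR and 17.9% by DESeq2. The 6 genes were chosen for likeness to the triad over libraries that include WT, so these counts and p-values are a description. TraesCS7D01G535300 averaged 35.8 FPKM in the lines and 11.3 FPKM in WT (log2 difference 1.54 ± 0.57 SE, adjusted p = 0.0706), and TraesCS6A01G057400 19.5 FPKM in the lines and 6.90 FPKM in WT (1.32 ± 0.53, 0.0914). Their lowest line libraries, at 9.05 and 6.14 FPKM, lay within the WT ranges of 8.90 to 15.7 and 4.99 to 7.93 FPKM.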
